A study of Homo sapiens with 4 samples.

Results

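The BCL2 family decides whether mitochondria release the proteins that start the caspases, and 10 of its genes were followed here in HGC-27 cells, an established human gastric cancer line. They were listed by gene symbol, with earlier results of these data known, and all 10 were found among the 62443 genes of the expression table. BCL2, BCL2L1 and MCL1 are anti-apoptotic, BAX and BAK1 are effectors, and BAD, BID, BCL2L11, BBC3 and PMAIP1 are BH3-only genes. RNA of 4 libraries was sequenced, 2 from cells given GLUP and 2 from control cells. GLUP is a cyclic peptide built in the study to link molecules of TEAD4, a DNA-binding factor of the Hippo pathway, and was used at 10 μg/ml. The results text gives the treatment as 12 h and the methods as 48 h, and the control cells received the peptide's HEPES-based stocking buffer according to the methods but no treatment according to the labels. The methods call the replicates biological without saying how they were separated. Each p-value sets the difference of the groups against the spread within them, pooled over both and drawn towards that of other genes. There are 2 libraries in a group.

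As background, anti-apoptotic proteins hold the effectors in check by gripping a short helix called BH3. BH3-only proteins answer stress signals and either occupy that grip or act on the effectors directly, and freed BAX and BAK form pores in the outer mitochondrial membrane through which cytochrome c leaves. Many steps of this control are at the level of protein, by cleavage, phosphorylation or degradation, and RNA does not show them.

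The stretch that unites all 10 members is the BH3 helix, so the coding bases around it are shown, read from the GRCh37 transcripts of the GENCODE annotation. Each sequence holds 12 codons, 5′ to 3′ on the coding strand, with capitals on the 6-codon core that begins with leucine and ends with aspartate.
BCL2: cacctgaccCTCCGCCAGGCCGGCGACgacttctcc
BCL2L1: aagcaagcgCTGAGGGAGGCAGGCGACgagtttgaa
MCL1: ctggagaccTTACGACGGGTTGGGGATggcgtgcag
BAX: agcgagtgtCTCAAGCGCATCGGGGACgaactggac
BAK1: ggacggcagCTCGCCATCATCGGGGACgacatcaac
BAD: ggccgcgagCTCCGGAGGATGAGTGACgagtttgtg
BID: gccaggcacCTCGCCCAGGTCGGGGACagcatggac
BCL2L11: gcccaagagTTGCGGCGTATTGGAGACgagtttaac
BBC3: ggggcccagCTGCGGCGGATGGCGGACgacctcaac
PMAIP1: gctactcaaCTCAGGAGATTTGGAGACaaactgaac
The core was searched for as leucine, then lysine, alanine or arginine, any pair of residues, then glycine, alanine or serine, and aspartate. The residues allowed are those that these members hold, so a match in each was no test. This pattern was found once in the coding sequence of each member, and in each it lay within a single exon. The codon before the closing aspartate encodes glycine in 8 members, alanine in BBC3 and serine in BAD. Around this shared helix the proteins differ in length, from 54 codons in PMAIP1 to 350 in MCL1, and the core starts at codon 29 of the former and codon 213 of the latter.

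The values were FPKM, fragments scaled to gene length and to the mapped fragments of the library, so levels of different genes are given per length. Such scaling does not adjust for GC content, and the annotation behind the lengths is not known, so the order of genes is approximate. BID RNA was by far the most abundant of the family, with a mean of 65.9 FPKM over the 4 libraries, and its lowest library lay above the highest library of any other member. PMAIP1 followed with a mean of 7.33 FPKM, BAD with 5.58, BAX with 1.69 and MCL1 with 1.40. The other members had means under 1 FPKM, at 0.727 for BCL2L1, 0.503 for BAK1, 0.101 for BCL2L11, 0.0895 for BCL2 and 0.0264 for BBC3. Of the neighbours in this order, only BID and PMAIP1, and BAK1 and BCL2L11, had ranges that did not overlap. BAX lay above MCL1 in 2 of the 4 libraries only, both of them GLUP libraries. Among the 7588 genes whose mean reached 1 FPKM, BID stood at the 89.8th percentile of level and MCL1 at the 14th.

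**Figure D1:**
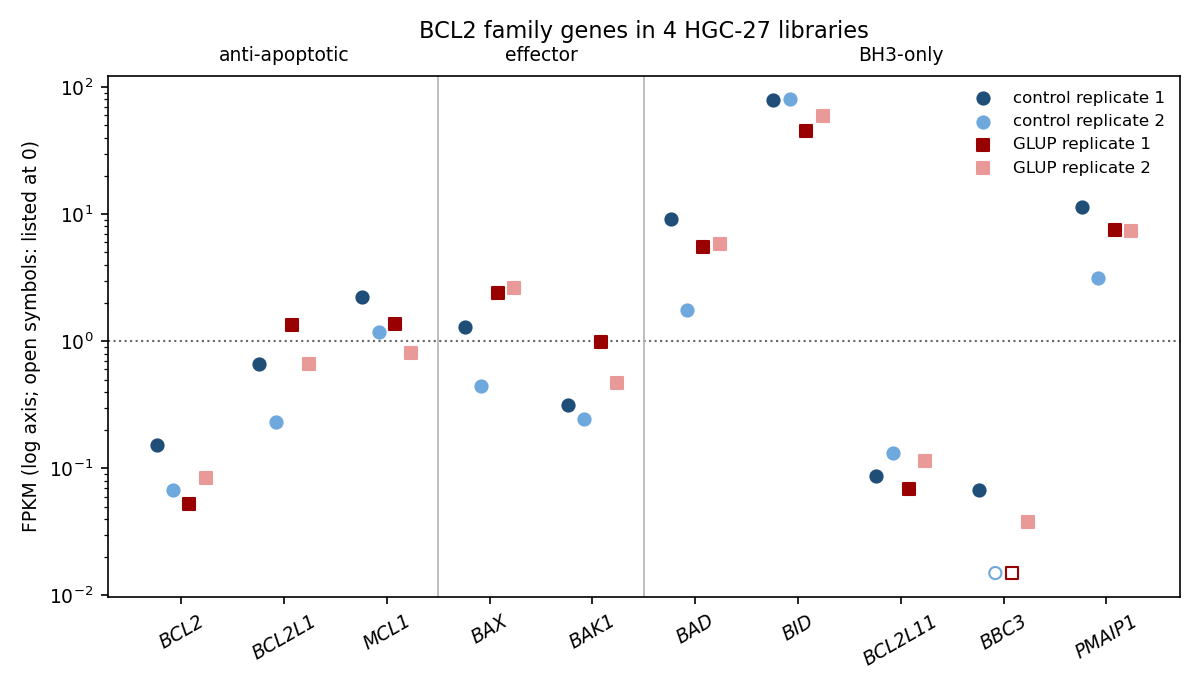
FPKM of the 10 BCL2 family genes (log axis) in each of the 4 HGC-27 libraries, circles for control and squares for GLUP, with open symbols for libraries listed at 0 and a dotted line at 1 FPKM. BID lies between 44.7 and 79.9 FPKM and above all other members, and BAX and BAK1 are the members whose GLUP squares both lie above both control circles.

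Group differences are given as log2 fold changes, GLUP minus control, on the log2(FPKM + 1) scale, which understates the change of low genes. They come from limma, a linear model per gene with moderated variances, fitted to the same 7588 genes and adjusted over them by the Benjamini-Hochberg method. A gene counted as changed with a fold change over 2 and an unadjusted p under 0.05. By this rule 4.67% of all genes tested were higher in GLUP and 14.5% were lower, and 0.0264% (2 genes) also had an adjusted p under 0.05. Leaving out control replicate 1 raised that last count to 2710, and leaving out control replicate 2 to 1020, fits in which the lone control is assumed to vary like the GLUP pair. MCL1, BAX, BAD, BID and PMAIP1 could be tested, and 0 of these 5 passed in either direction. At an unadjusted p under 0.05 with any fold change, 1 of the 5, BAX, was higher in GLUP, against 6.37% of all genes tested. Across all genes tested the median log2 fold change was -0.36, and over the 5 members it was 0.24.

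The 4 libraries were not equally alike. On the log2 scale the GLUP libraries had a Pearson r of 0.986 across genes and the control libraries 0.933, while control replicate 1 had 0.952 and 0.957 with the GLUP libraries and control replicate 2 only 0.873 and 0.886. Of the 10 members, 5 were lowest in control replicate 2 and BBC3 was tied there at 0 with GLUP replicate 1, and 8 were higher in control replicate 1 than in control replicate 2, as were 53.9% of all genes tested. Of the 5 epithelial markers, the keratins KRT8, KRT18 and KRT19 lay between 0.764 and 2.25 FPKM and were higher in both GLUP libraries than in both controls, and EPCAM, at 0.124 or below, and CDH1, at 0.0799 or below, were lower. Their sum was 2.97 and 3.70 FPKM for the controls and 5.87 and 5.18 for GLUP, whereas the mesenchymal filament VIM lay between 293 and 387 FPKM. Of the markers of gastric mucosa, TFF1, TFF2 and GKN1 were listed at 0 in every library, and MUC5AC and CLDN18 did not exceed 0.063 FPKM, so the defining genes of gastric epithelium were at or near 0. CD3E and HBB, of T cells and red cells, were also listed at 0, and PTPRC of leukocytes was at 0.0394 FPKM or below, while COL1A1, a collagen gene of fibroblasts, had 2.97 and 3.64 FPKM in the controls and 6.91 and 4.42 in the GLUP libraries. The keratins and COL1A1 thus separated the groups in the same direction as the effectors, and their part in that difference was not tested.

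The effectors were the class in which both GLUP libraries lay above both control libraries for each gene. In bulk RNA, fewer cells with a transcript and less of it per cell cannot be told apart. BAX (ENSG00000087088, GRCh37 chr19:49458072-49465055, plus strand) encodes the effector that moves from the cytosol to mitochondria. Its FPKM was 1.29 and 0.441 in the control libraries and 2.40 and 2.62 in the GLUP libraries, or 0.864 ± 0.597 (SD, n = 2) against 2.51 ± 0.151 (SD, n = 2). The groups did not overlap, and the ratio of their means was 2.91. The log2 fold change was 0.95 (SE 0.30, 95% interval 0.20 to 1.70), with an unadjusted p of 0.0213 and a Benjamini-Hochberg adjusted p of 0.116 by limma. That placed BAX just under a fold change of 2, so its call depends on the scale. It passed the rule with median centring, where the log2 fold change was 1.29, with quantile normalization at 1.12 and with a pseudocount of 0.1 at 1.59. Without control replicate 1 the log2 fold change was 1.28, which passed, and without control replicate 2 it was 0.62, which did not. Without either GLUP replicate the unadjusted p was 0.0661 and 0.0835. Both GLUP libraries lay above both control libraries in 17.5% of all genes tested, so the lack of overlap alone is common in this table.

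BAK1 (ENSG00000030110, chr6:33540324-33548070, minus strand), the effector that resides in the mitochondrial membrane, was too low for the main test. It had 0.315 and 0.243 FPKM in the controls and 0.984 and 0.470 in the GLUP libraries. Again both GLUP values lay above both control values, and the ratio of means was 2.61. The 17.5% given for BAX covers only genes of the main test. How often the groups separate among lower genes such as BAK1 was not computed. In a wider limma fit to all 28873 genes above 0 in any library, BAK1 had a log2 fold change of 0.42 (SE 0.22, 95% interval -0.19 to 1.02). Its unadjusted p was 0.128 and its Benjamini-Hochberg adjusted p 0.522. Reads of the pseudogenes BAK1P1 and BAK1P2 could be shared with BAK1, and these were listed at 0 apart from 0.0518 FPKM of BAK1P1 in GLUP replicate 2. Summed, the effectors had 1.60 and 0.684 FPKM in the controls and 3.39 and 3.09 in the GLUP libraries.

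Among the anti-apoptotic genes, MCL1 (ENSG00000143384, chr1:150533371-150552214, minus strand) alone reached a mean of 1 FPKM. Its short-lived protein binds BAK and several BH3-only proteins. MCL1 had 2.25 and 1.19 FPKM in the controls and 1.36 and 0.803 in the GLUP libraries. Those ranges overlapped, and the log2 fold change of -0.37 (SE 0.30, 95% interval -1.12 to 0.38) had a Benjamini-Hochberg adjusted p of 0.408 by limma. It lay close to the median of all genes tested, and with median centring it was -0.03. Without control replicate 1 it was -0.09, and without control replicate 2 it was -0.65.

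BCL2L1 (ENSG00000171552, chr20:30252255-30311792, minus strand) gives rise to BCL-XL, an anti-apoptotic protein, and to a shorter pro-apoptotic form, and the table has 1 value per gene that cannot separate them. Its FPKM was 0.665 and 0.232 in the control libraries and 1.35 and 0.658 in the GLUP libraries. The GLUP replicates differed from each other about as much as the groups did, and GLUP replicate 2 lay just under control replicate 1. The log2 fold change was 0.46 (SE 0.28, 95% interval -0.31 to 1.24), with a Benjamini-Hochberg adjusted p of 0.575 in the wider limma fit. Without 1 library at a time it ran from 0.21 to 0.72. BCL2 (ENSG00000171791, chr18:60790579-60987361, minus strand), the founding member of the family, was near the bottom of the range. Its FPKM was 0.154 and 0.0676 in the control libraries and 0.0520 and 0.0845 in the GLUP libraries. At that level a log2 fold change of -0.06 (SE 0.06) says little, since the pseudocount of 1 exceeds every value. MCL1 lay above BCL2L1 in all 4 libraries, 3.37-fold and 5.15-fold in the control libraries and 1.01-fold and 1.22-fold in the GLUP libraries.

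The BH3-only genes spanned the whole range of levels and had differences of both signs. BID (ENSG00000015475, chr22:18216904-18257536, minus strand) links death receptors to mitochondria once caspase-8 has cleaved its protein. It had 79.3 and 79.9 FPKM in the controls and 44.7 and 59.5 in the GLUP libraries, or 79.6 ± 0.453 (SD, n = 2) against 52.1 ± 10.5 (SD, n = 2). Both GLUP values lay below both control values, with a ratio of means of 0.655. Both were below in 49.7% of all genes tested, so the order of the libraries does not set BID apart. The log2 fold change was -0.62 (SE 0.33, 95% interval -1.44 to 0.21), with an unadjusted p of 0.117 and a Benjamini-Hochberg adjusted p of 0.245 by limma. With median centring it was -0.27, and without 1 library at a time it stayed between -0.82 and -0.41.

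BAD (ENSG00000002330, chr11:64037302-64052176, minus strand) encodes a BH3-only protein that survival kinases phosphorylate and so keep away from BCL-XL. Its FPKM was 9.14 and 1.77 in the control libraries and 5.54 and 5.85 in the GLUP libraries. The GLUP libraries lay close together between control libraries that differed 5.17-fold. With a log2 fold change of 0.34 (SE 0.61, 95% interval -1.18 to 1.85), BAD had a Benjamini-Hochberg adjusted p of 0.716 by limma, and the direction depended on the control library kept. Leaving out control replicate 1 gave 1.27, and leaving out control replicate 2 gave -0.60. GPR137, which overlaps BAD on the opposite strand, had at most 0.856 FPKM, and the sources used here do not say if reads were counted by strand.

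PMAIP1 (ENSG00000141682, chr18:57567228-57571537, plus strand) encodes NOXA, a BH3-only protein with a preference for MCL1. Its libraries had the same order as those of BAD at the top and bottom, at 11.3 and 3.16 FPKM in the controls and 7.52 and 7.36 in the GLUP libraries. The control libraries differed 3.58-fold and enclosed the GLUP libraries. For PMAIP1 limma gave a log2 fold change of 0.24 (SE 0.54, 95% interval -1.09 to 1.57) and a Benjamini-Hochberg adjusted p of 0.773. Without control replicate 1 the log2 fold change was 1.02 and without control replicate 2 it was -0.54. The level of BAD over that of PMAIP1 was 0.81, 0.56, 0.737 and 0.795 in control replicates 1 and 2 and GLUP replicates 1 and 2.

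The other BH3-only genes were close to the floor of the table. BCL2L11 (ENSG00000153094, chr2:111876955-111926021, plus strand), which encodes BIM, had 0.0874 and 0.131 FPKM in the controls and 0.0693 and 0.115 in the GLUP libraries. The groups overlapped. Its locus also overlaps that of the long noncoding RNA MIR4435-2HG on the opposite strand. That RNA had 23.5 and 44.5 FPKM in the controls and 12.4 and 12.7 in the GLUP libraries. Without strand, reads from any exon bases that both genes share could not be told apart, and shared exons were not looked for. BBC3 (ENSG00000105327, chr19:47724079-47736023, minus strand), which encodes PUMA, had 0.0678 FPKM in control replicate 1 and 0.0377 in GLUP replicate 2 and was listed at 0 in the other libraries. Since the sequencing depth is not known, the counting error of genes at such levels cannot be computed.

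**Figure D2:**
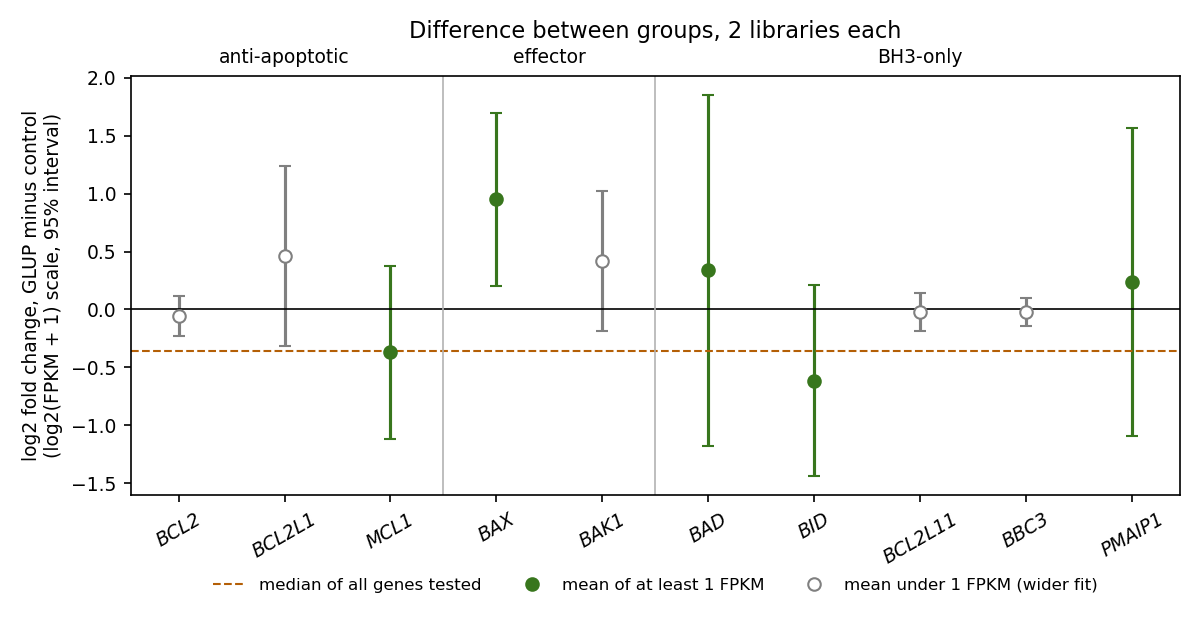
Log2 fold change (GLUP minus control, log2(FPKM + 1) scale) of the 10 members with 95% intervals from limma, filled for the 5 genes of the main test and open for genes under a mean of 1 FPKM. Among the filled points only the interval of BAX, 0.20 to 1.70, leaves out 0, and those of BAD and PMAIP1 are the widest.

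Set against each other within a library, the effectors stood higher against the anti-apoptotic genes in both GLUP libraries. The summed FPKM of BAX and BAK1 divided by that of BCL2, BCL2L1 and MCL1 was 0.522 and 0.459 in the control libraries and 1.22 and 2.00 in the GLUP libraries. Such a ratio within a library is free of any scaling between libraries. It reuses the values given above, with BAX as most of the effector sum, and is no separate evidence. How often ratios of other genes separate the groups was not computed. The ratio of BAX to MCL1 separated in the same way, at 0.573 and 0.37 in the control libraries and 1.77 and 3.26 in the GLUP libraries. That of BAX to BCL2L1 did not, at 1.93 and 1.91 in the control libraries and 1.78 and 3.98 in the GLUP libraries. BAX and MCL1 differ in GC content, at 58.9% and 44.7%, while BAX and BCL2L1, at 58.2%, hardly do, and the part of GC content in these ratios was not tested. With 2 libraries against 2, an exact permutation test of such a ratio cannot give a two-sided p below 0.333, so none was made.

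BID made up most of the summed FPKM of the members in every library. The sum over all 10 was 104.5 and 87.2 FPKM in the controls and 64.0 and 77.5 in the GLUP libraries, and BID made up 75.8% and 91.7% of it in the former and 69.9% and 76.8% in the latter. Effectors made up 1.53% and 0.785% in the control libraries and 5.29% and 3.98% in the GLUP libraries. The anti-apoptotic share, at 2.93% and 1.71% in the control libraries and 4.32% and 1.99% in the GLUP libraries, overlapped between the groups. Without BID, the other BH3-only genes summed to 20.6 and 5.06 FPKM in the controls and 13.1 and 13.4 in the GLUP libraries, which again lie between the controls. BID exceeded BAX 61.6-fold and 181-fold in the control libraries and 18.6-fold and 22.7-fold in the GLUP libraries.

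The fold changes of all genes tested ran along the GC content of their longest transcript, at a rank correlation of 0.577 (Spearman) over genes that share these libraries and are not independent of each other. The members are spread along it. BAX has a GC content of 58.9%, BAK1 58.8% and BCL2L1 58.2%, above the median of 46.5% over the genes tested, and these are the 3 members with the highest log2 fold changes. MCL1 has 44.7%, BID 49.7%, BAD 66.3%, PMAIP1 36.7%, BCL2 45.6% and BCL2L11 46.6%. BBC3, the most GC-rich member at 69.7%, had a log2 fold change of -0.02, at levels close to the floor. The values of BAK1, BCL2L1, BCL2, BCL2L11 and BBC3 are those of the wider fit. With each library's GC trend removed, BAX had a log2 fold change of 0.51 with an unadjusted p of 0.0592, BID had -0.44 and MCL1 0.13. PMAIP1, the most GC-poor member, then had 1.06 with an unadjusted p of 0.127, and BAD, the most GC-rich of those tested, had -0.28. Of the 5 tested members, BAX, BID and PMAIP1 had the same direction with and without the correction, and MCL1 and BAD did not. The wider fit takes the trend over all genes above 0. There BAK1 had 0.36 with the correction and 0.42 without it, and BCL2L1 had 0.41 and 0.46. The part of GC content in these differences was not tested further.

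**Figure D3:**
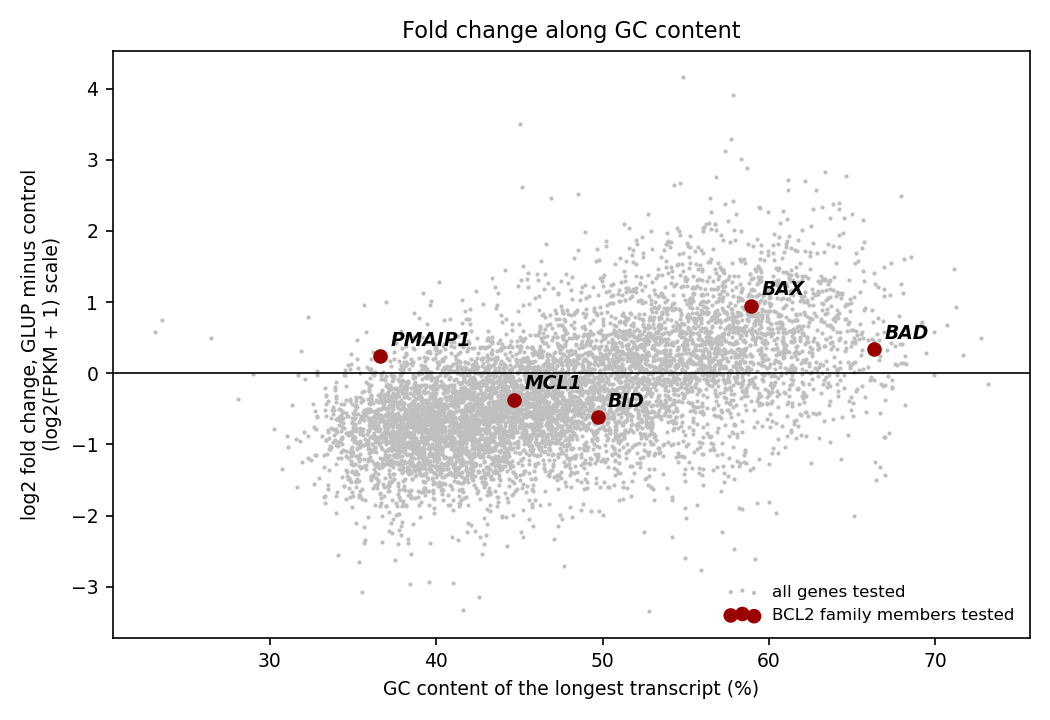
Log2 fold change (GLUP minus control, log2(FPKM + 1) scale) of each gene tested against the GC content of its longest transcript in percent, with the 5 tested members in red. Fold changes are higher at higher GC content (Spearman rho 0.577), and PMAIP1 at 36.7% GC and BAD at 66.3% GC have similar values, 0.24 and 0.34.

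**Figure D4:**
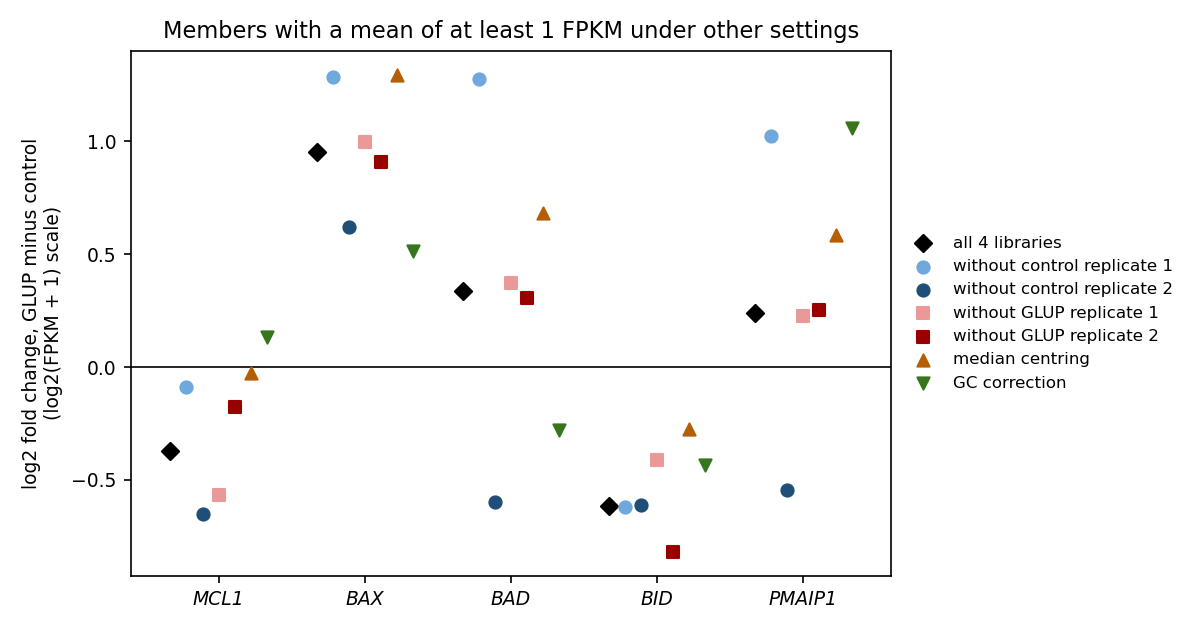
Log2 fold change (GLUP minus control) of the 5 tested members with all 4 libraries, without each library in turn, with median centring and with GC correction. BAX stays above 0 and BID below 0 in all 7 settings, while BAD and PMAIP1 switch sign without control replicate 2, and BAD and MCL1 with GC correction.

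The promoters of the members, as RefSeq gives them for GRCh38.p14, were searched for GGAATG on both strands (CATTCC on the other), the core of the site that TEAD factors bind. These windows run from 250 bases before to 50 bases after a start, and 15 of them belong to 9 members. The letters stood in 1 of the 15, a window of BBC3, against 14% of 35116 windows of all genes. Several windows of BID overlap each other, and sites further from a start were not searched. The paper mapped TEAD4 on chromatin by Cut&Tag and reported a weaker signal at BCL2L1 in GLUP-treated cells than in controls. No window of BCL2L1 held the letters, so this search does not show where TEAD4 binds. No window was given for MCL1.

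Other genes of the pathway put the members in context, from lists chosen with earlier results of these data known. Of 51 such genes 31 could be tested, of which 1 passed the rule as higher in GLUP, against 4.67% of all genes tested, and 3 as lower, against 14.5%. Their groups did not overlap in 13, with 4 higher and 9 lower, against 17.5% and 49.7% of all genes tested, and their median log2 fold change was -0.12, against -0.36 over all genes tested. The 3 that were lower, CASP6, CFLAR and DDIT3, did not pass with GC correction, with median centring or without either GLUP replicate, where their unadjusted p ranged from 0.0638 for CFLAR to 0.245 for DDIT3. The rest of the BCL2 family had 4 of 11 genes tested, and 1, BIK, rose. BIK, a BH3-only gene whose protein acts largely at the endoplasmic reticulum, had 5.10 and 0.724 FPKM in the controls and 9.88 and 9.61 in the GLUP libraries. Its log2 fold change was 1.73 (SE 0.60), with an unadjusted p of 0.0295 and a Benjamini-Hochberg adjusted p of 0.128 by limma. It also passed with GC correction, at 1.45, and did not without control replicate 2, at 0.82, or in the wider fit, where the unadjusted p was 0.0591. BCL2L2, the anti-apoptotic gene of BCL-W, had between 0.344 and 0.484 FPKM, and BCL2A1 and BCL2L10, named here because they were listed at 0 in all 4 libraries, gave no value to compare.

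Of the mitochondrial pore genes and the proteins released, all 8 were tested and 0 passed by limma, with 0 at an unadjusted p under 0.05. CYCS, which encodes cytochrome c, had a high level, at 228.5 and 109.6 FPKM in the controls and 134.8 and 132.5 in the GLUP libraries. Its groups overlapped. DIABLO, whose protein SMAC frees caspases from their inhibitors, had 15.7 and 6.85 FPKM in the controls and 11.6 and 11.9 in the GLUP libraries, with the GLUP libraries between the controls as in BAD and PMAIP1. Leaving out control replicate 1 gave a log2 fold change of 0.28 for CYCS and 0.70 for DIABLO, and leaving out control replicate 2 gave -0.77 and -0.39.

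The caspases act downstream of the family. Of 8 apoptosome and caspase genes 5 were tested, and 1, CASP6, fell. CASP6, an executioner caspase gene, had 9.37 and 14.7 FPKM in the controls and 5.10 and 5.63 in the GLUP libraries. Its log2 fold change of -1.01 (SE 0.34) had a Benjamini-Hochberg adjusted p of 0.122 by limma, and without control replicate 2 it was -0.71, short of the 2-fold limit. CASP8, whose protein cleaves BID, had 3.92 and 4.35 FPKM in the controls and 2.17 and 1.69 in the GLUP libraries, without overlap, with a log2 fold change of -0.81 short of the 2-fold limit, and with a pseudocount of 0.1 it was -1.07, which passed. CASP6 and CASP8 have a GC content of 42.8% and 42.6%, and with GC correction their log2 fold changes were -0.39 and -0.19, neither past the rule. APAF1 and CASP9, which form the apoptosome with cytochrome c, were under 0.15 and 0.45 FPKM in every library.

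CFLAR, which encodes the FLIP protein that blocks caspase-8 at death receptors, was 1 of 5 tested genes of its list of 8 to pass. It had 4.66 and 4.86 FPKM in the controls and 1.52 and 1.69 in the GLUP libraries, a wide gap against the spread within each pair. Its log2 fold change was -1.14 (SE 0.26), with an unadjusted p of 0.00468 and a Benjamini-Hochberg adjusted p of 0.1 by limma, and with GC correction it was -0.60, no longer past a fold change of 2. Of the 5 inhibitors of apoptosis 3 were tested and 0 passed by limma, with 0 at an unadjusted p under 0.05. XIAP, which blocks caspases directly, ranged from 0.274 to 2.33 FPKM, and BIRC5, the survivin gene, from 19.3 to 33.8, both with overlapping groups. Without 1 library at a time the log2 fold change ran from -0.94 to 0.15 for XIAP and from -0.70 to 0.0011 for BIRC5. BIRC3 lay under a mean of 1 FPKM, at 0.350 and 0.689 FPKM in the controls and 0.0930 and 0.0625 in the GLUP libraries. In the wider limma fit BIRC3 had a log2 fold change of -0.49 and a Benjamini-Hochberg adjusted p of 0.377. With GC correction the log2 fold change was -0.37.

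Among 11 regulators of the family 6 were tested, and 1, DDIT3, fell. DDIT3 encodes CHOP, a stress factor that can raise BCL2L11 and lower BCL2, and had 159 and 160.3 FPKM in the controls and 84.0 and 72.0 in the GLUP libraries. Its log2 fold change was -1.03 (SE 0.32), with a Benjamini-Hochberg adjusted p of 0.112 by limma. With GC correction it was -0.85, under a fold change of 2. MARS1 overlaps DDIT3 on the opposite strand, with 6.16 to 12.5 FPKM. USP9X, whose protein stabilises MCL1, had 0.799 and 0.939 FPKM in the controls and 0.280 and 0.272 in the GLUP libraries, below the level of the main test. In the wider limma fit USP9X had a log2 fold change of -0.55 and a Benjamini-Hochberg adjusted p of 0.341. With GC correction the log2 fold change was -0.45. TEAD4, the target of the peptide, had 1.71 and 0.227 FPKM in the controls and 1.46 and 1.36 in the GLUP libraries, with overlapping groups. Its log2 fold change was 0.41, with GC correction -0.09, without control replicate 1 0.98 and without control replicate 2 -0.17. VGLL4, a TEAD cofactor, had 0.676 and 0.733 FPKM in the controls and 1.91 and 1.54 in the GLUP libraries. Its log2 fold change was 0.67, with an unadjusted p of 0.0270 by limma. It exceeded the 2-fold limit with median centring, at 1.02, and with a pseudocount of 0.1, at 1.18. With GC correction, at 0.83, and with quantile normalization, at 0.86, it did not. Without 1 library at a time it ran from 0.57 to 0.77.

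**Figure D5:**
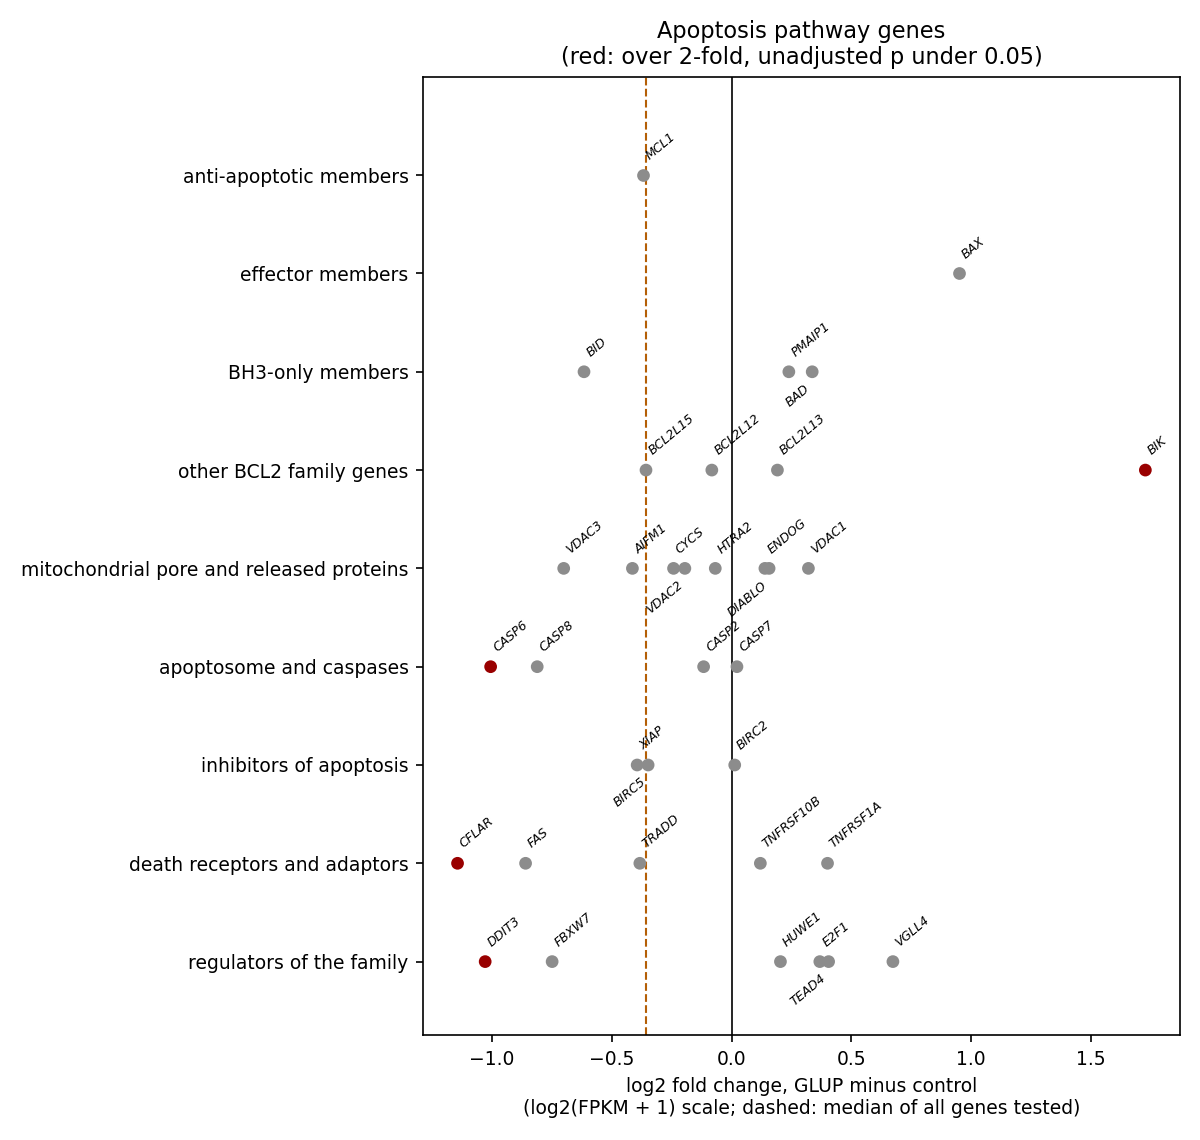
Log2 fold change (GLUP minus control, log2(FPKM + 1) scale) of the 5 tested members and of other tested genes of the pathway, one row per list, in red where the fold change is over 2 with an unadjusted p under 0.05. BIK at 1.73 is the only red point on the right, CASP6, CFLAR and DDIT3 are red on the left, and BAX at 0.95 falls short of the limit.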

How the data were processed

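The authors deposited FPKM values, 1 per gene and library, computed from reads of HGC-27 total RNA. The submitters' processing notes name HISAT2, Cufflinks, RSEM and GRCh38.p10 without versions or roles, yet 84.8% of the 62492 row identifiers carry the suffix of GENCODE annotation mapped back to GRCh37. Rows of one gene ID were summed, and 99.55% of genes matched a symbol. Positions, GC content and coding sequences come from GENCODE v44 lifted to GRCh37, which may differ from the annotation behind the values. FPKM totals ranged from 909735 to 949919, and depth is unknown.

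Values were tested as log2(FPKM + 1) with limma 3.58.1 in R 4.3.3 (mean-variance trend, no block) and Benjamini-Hochberg adjustment over 7588 genes. The fit was checked on simulated data in which a gene had the same variance in every library, so an outlying library was not covered. Members under a mean of 1 FPKM were read from a fit to all 28873 genes above 0. For GC correction, each library's deviations were smoothed along GC content (lowess, span 0.3), known for 7570 genes. Members, lists, tests and alternatives were chosen with earlier results of these data known, and list counts under the alternatives were added after seeing the data. Besides all members, the rule named BCL2L2, CYCS, APAF1, CASP8, CASP9, DIABLO, XIAP, BIRC5, TEAD4, 2 genes not reported here and, per list, up to 3 genes with the largest changes among those with separate groups and an unadjusted p under 0.05. BCL2A1, BCL2L10 and genes overlapping or copied from a member were named after their values were seen.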

Additional observations from a re-analysis of the deposited data

How the results depend on the processing

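Of 128 values of single members under the alternatives, 104 kept their direction and, where a p was computed, their side of the threshold. Another 17 changed sign and 7 passed the threshold that the reported value missed. The ratio of mean FPKM with no pseudocount has no p, so only its direction was read. By that ratio BAX was at 1.54, BAK1 at 1.38 and BCL2L1 at 1.16 on the log2 scale. With GC correction, alone or with a replicate block, BCL2 was at 0.0077, MCL1 at 0.1315, BAD at -0.2795 and BCL2L11 at 0.0326 on the log2 scale, each with its sign changed. With median centring BCL2L11 was at 0.0009 and BBC3 at 0.0031. Without 1 library at a time the values ran from -0.1114 to 0.0008 for BCL2, -0.5995 to 1.2733 for BAD, -0.0528 to 0.0071 for BCL2L11, -0.0680 to 0.0267 for BBC3 and -0.5425 to 1.0213 for PMAIP1. In place of 0 members past the threshold, 1 (BAX) passed with a pseudocount of 0.1, with median centring, with quantile normalization or at a fold change of 1.5, and 1 (PMAIP1) with GC correction and the replicate block. Without 1 library the number ran from 0 to 3, the 3 being BAX, BAD and PMAIP1 without control replicate 1. Fits without 1 library leave 1 sample in a group, which is assumed to vary like the other group.

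The median of the 5 members lay 0.5946 above that of all genes tested, and between -0.2589 (without control replicate 2) and 1.3629 (without control replicate 1) without 1 library. The anti-apoptotic share of the summed members was 0.8374 percentage points higher in GLUP, within the spread between libraries (SD 1.31), and -3.5928 points with each gene set relative to its own mean. Without 1 library it ran from -0.3265 to 2.0014.

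Over all genes tested, 1457 passed the threshold (24.3% of them higher in GLUP). There were 890 with a mean of at least 5 FPKM, 702 with GC correction (50.6% higher), 837 with GC correction and the replicate block, and 2401 at a fold change of 1.5. Centring on medians made 65% of the calls higher and quantile normalization 58.1%. Without 1 library the number ran from 587 (without GLUP replicate 1) through 684 (without GLUP replicate 2) to 2729 (without control replicate 1). No block was used in the reported fit, since 2 pairs cannot show a pairing and nothing ties equal numbers to a shared day. Deviations of same-numbered libraries correlated at 0.126. With the replicate block 1688 genes and 0 members passed, and the log2 fold change of BAX stayed at 0.95. With 2 libraries a group, a difference of 1 outlying control library from the others cannot be told apart from a difference of the groups in BAD and PMAIP1.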
